A study of Mus musculus with 40 samples.

Results

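Complement components and regulators were followed in bulk RNA of CT26 tumors: 9 genes (C1qa, C1qb, C1qc, C2, C3, C4b, Cfb, Serping1 and C3ar1) of the 54087 genes in the count table, taken by symbol. All 9 had a row and passed the filter on low counts, as 14760 genes did. CT26 is a mouse colon carcinoma line. BALB/c mice received 1000000 CT26 cells under the skin, were given antibodies (mAbs) into the peritoneum on days 6, 9 and 12, and their tumors were collected on day 13. Every one of the 40 mice carried a CT26 tumor and received mAb, the controls included, and the 8 groups held 5 mice each.

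The control group received an mIgG2a isotype control. The single-mAb groups received anti-GARP:TGFb WT or anti-GARP:TGFb FcD, which block the release of TGF-β1 from GARP:TGF-β1 complexes (GARP is displayed by regulatory T cells and platelets, among other cells) and differ in that the FcD format cannot bind Fcγ receptors; anti-TGFb, which neutralizes every TGF-β isoform; or anti-PD1 FcS, a PD-1 blocking mAb in an Fc-silent format. The remaining 3 groups received anti-PD1 FcS together with anti-GARP:TGFb WT, anti-GARP:TGFb FcD or anti-TGFb, and are called the WT combination, the FcD combination and the anti-TGF-β combination. Because whole tumor fragments were measured, fewer cells of a type and less RNA per cell cannot be told apart in any value given here.

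Complement is a set of plasma and cell-surface proteins that act one on another in a cascade. C1q, built from the products of C1qa, C1qb and C1qc, binds antibody and cell debris and starts the classical pathway, in which C4 and C2 form an enzyme that cleaves C3; factor B, from Cfb, forms the C3-cleaving enzyme of the alternative pathway. Cleavage of C3 tags surfaces and releases C3a, whose receptor is encoded by C3ar1, and Serping1 encodes the C1 inhibitor, which blocks the proteases that work with C1q. The liver makes most circulating complement, whereas within tumors C1q is known as a product of macrophages, and C3 is made by several cell types, fibroblasts among them.

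The libraries held 11931730 to 20680548 counts (median 14030511), and no pair of mice of a group was alike within counting noise (the lowest chi-square per degree of freedom over 80 pairs was 5.504). The library numbers in the titles run from 41 to 80, and libraries 41 to 60 differed from 61 to 80 in sex-linked RNA: Xist, transcribed from the inactive X, had 0 to 6 counts in the former and 784 to 12701 in the latter, while the Y-linked Ddx3y had at least 91 counts in the former and 0 in the latter. The labels give no sex. Each group had 2 or 3 mice in each part, and results are also given within the parts. Between the parts no member passed the test, as 1.68% of genes did (edgeR). At an unadjusted p under 0.05 there were 2 members, beside 12.5% of genes: C3, at a log2 difference of 61 to 80 from 41 to 60 of -0.40 (SE 0.18, adjusted p = 0.317, edgeR), and Serping1, at -0.45 (SE 0.18, adjusted p = 0.248, edgeR). Between the same parts 4 of 4 adipocyte markers and 3 of 4 neutrophil markers tested were lower in libraries 61 to 80 at that p (edgeR). Of the genes listed as CT26 carcinoma markers, 5 of 5 were higher there and passed the test (edgeR). Library 77 of the WT combination and library 48 of the anti-TGFb group stood apart: library 77 held summed macrophage markers of 8120 counts per 1000000 (CPM) against 1153 to 1638 CPM in the isotype controls, and library 48 held 3246 CPM. Library 44 of the FcD combination held nearly as much, 3244 CPM. The genes of the CT26 carcinoma list (Krt8, Krt18, Krt19, Cdh1, Epcam) summed to 5.08 to 18.2 CPM in libraries 41 to 60. In libraries 61 to 80 they summed to 19.96 to 500.1 CPM. Krt8 and Epcam had median counts of 18.5 and 7.5, with 0 counts in at least 1 library. Every tumor was grown from CT26 cells, so the list is not read as the amount of CT26 cells, which was not tested.

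On the scale of mean CPM per kilobase of exon, which lets genes be compared, C1qa stood highest at 574, followed by C1qb at 462 and C1qc at 258. C4b at 30.6, C3ar1 at 30.1, C3 at 27.2 and Serping1 at 23.7 lay close together. C2, at 0.406, and Cfb, at 0.238, were near the floor of the table, with 6 to 47 counts of C2 and 2 to 30 counts of Cfb per library.

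The 3 C1q genes lie side by side on chromosome 4 of GRCm38, all on the minus strand: C1qb at chr4:136880129-136886187, C1qc at chr4:136889804-136893065 and C1qa at chr4:136895917-136898803, with 3616 and 2851 bases between neighbours. C4b (chr17:34728380-34743882), Cfb (chr17:34856374-34862518) and C2 (chr17:34862604-34898265) lie near each other on chromosome 17, Cfb ending 85 bases from C2, and C3 lies apart on the same chromosome (chr17:57203970-57228136). Serping1 is at chr2:84765387-84775444 and C3ar1 at chr6:122847138-122856161. A read-through gene model, Gm20547, which has no row in the count table, covers 79.5% of the exon bases of Cfb and 42.8% of those of C2, and 15.2% of the stretches of 100 bases in C4b are also found in its near-copy C4a, so that the counts of C2, Cfb and C4b depend on how shared reads were treated and are uncertain to that extent.

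Promoters of 4 of the 9 members (C1qb, C1qc, C3 and C3ar1) were matched in RefSeq (GRCm38.p6). The 100 bases before the RefSeq start are shown for C1qb (chr4:136886201-136886300), C3 (chr17:57228137-57228236) and C3ar1 (chr6:122856158-122856257), all minus strand, as one each of the C1q genes, the central component and the receptor whose levels the results turn on. The last 4 bases of the C3ar1 stretch lie in an exon of the GENCODE annotation, in which the gene starts earlier. Capitals mark the match to the NF-κB letters described after the sequences.
C1qb: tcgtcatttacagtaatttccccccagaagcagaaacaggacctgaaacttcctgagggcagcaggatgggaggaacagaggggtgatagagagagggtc
C3: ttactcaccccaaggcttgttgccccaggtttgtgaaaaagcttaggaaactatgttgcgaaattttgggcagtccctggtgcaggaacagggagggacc
C3ar1: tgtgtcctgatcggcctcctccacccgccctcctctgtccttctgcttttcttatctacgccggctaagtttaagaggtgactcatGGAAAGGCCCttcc

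The 300-base windows (250 bases before and 50 after the start) of the 4 genes were searched on both strands for the interferon-stimulated response element and an NF-κB motif. The single match was the NF-κB letters in C3ar1, on the opposite strand, 14 to 5 bases before the start. Of 32851 promoters, 3.44% held the response element and 1.63% the NF-κB letters.

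No member passed the test (adjusted p under 0.05, edgeR's quasi-likelihood test with Benjamini-Hochberg adjustment over 14760 genes) in any of the 7 comparisons with the isotype control, in which 0% of all genes passed. Most estimates were positive in the combinations. Of the members, 8 of 9 had a positive log2 fold change in the WT combination, 9 of 9 in the FcD combination and 9 of 9 in the anti-TGF-β combination, with medians of 0.78, 0.63 and 0.51 beside medians over all genes of 0.01287, -0.003984 and 0.02169. With single mAbs it was 6 of 9 for anti-GARP:TGFb WT, 1 of 9 for anti-GARP:TGFb FcD, 9 of 9 for anti-TGFb and 6 of 9 for anti-PD1 FcS, with medians of 0.11, -0.13, 0.21 and 0.07. At an unadjusted p under 0.05 the higher members were 6 of 9 in the WT combination (13.2% of all genes), 4 of 9 in the FcD combination (10.7%) and 2 of 9 in the anti-TGF-β combination (8.49%). The 7 comparisons share the same 5 control mice, so the counts are not independent of one another. Without library 77 the 6 members of the WT combination became 0 of 9, and the share of all genes became 2.81%. Without libraries 57 or 68 of the anti-TGF-β combination, or 74 or 78 of the isotype control, its 2 became 0 (5.34% to 6.59% of genes), and without library 77 they became 4 (10.3%). They became 1 without library 46, 53, 62 or 63 (4.92% to 13.1%). The FcD combination ranged from 3 to 7 members over the mice left out, with 3 without library 44 or 78 (6.61% and 7.8% of genes) and 7 without library 77 (13.9%).

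**Figure D1:**
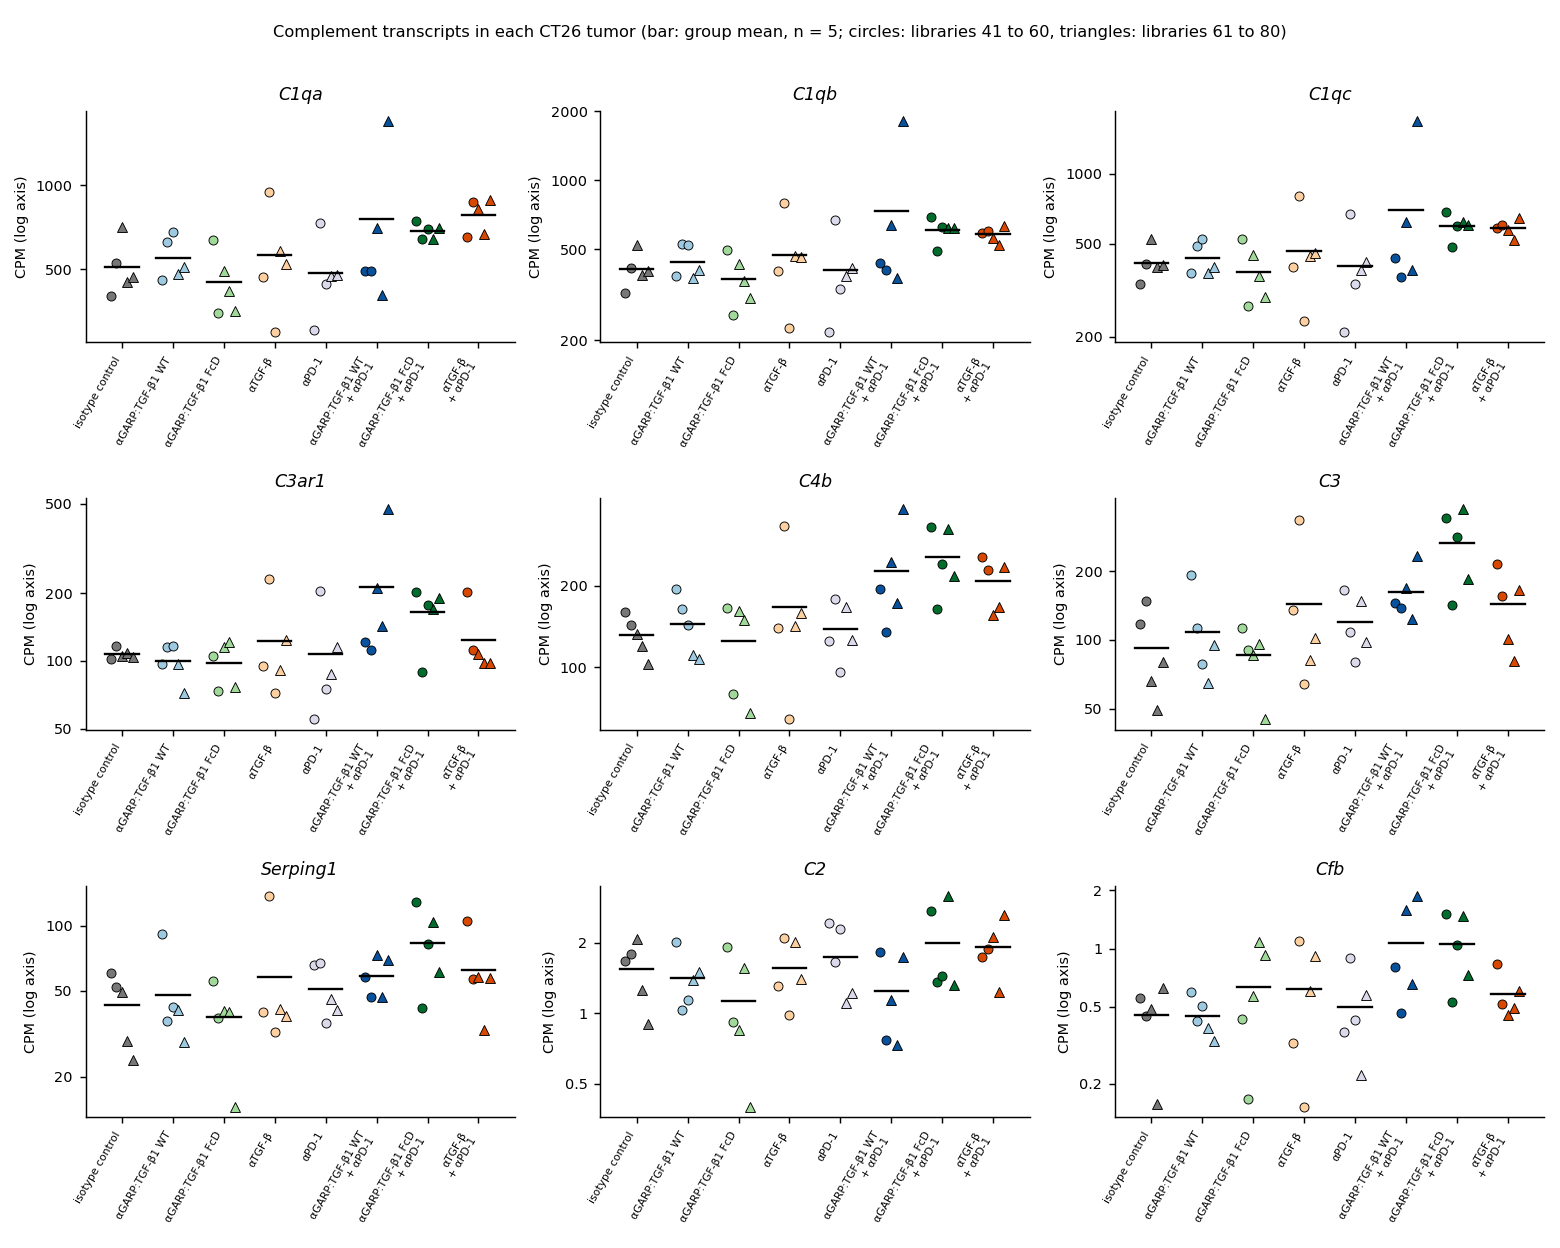
CPM (log axis) of each of the 9 genes in each of the 40 tumors, by treatment group; bars are group means (n = 5), circles libraries 41 to 60 and triangles libraries 61 to 80. The single triangle far above its group in C1qa, C1qb, C1qc and C3ar1 is library 77 of the WT combination, and C4b of the FcD combination and C1qb of the anti-TGF-β combination lie wholly above the isotype controls.

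C1qb, the B chain of C1q, was at 322, 412, 521, 385 and 401 CPM in the isotype controls. The WT combination gave 437, 404, 636, 374 and 1807 CPM. The FcD combination gave 694, 489, 625, 617 and 619 CPM. Of the FcD combination, 4 of 5 mice lay above every control, whereas the WT combination was spread on both sides of the controls' highest mouse and drew its mean from library 77. In the anti-TGF-β combination C1qb was at 589, 599, 560, 522 and 631 CPM, so that every mouse lay above every control. Members with such a separation numbered 1 in the anti-TGF-β combination, beside 1.73% of all genes, and 0 in the WT combination, beside 1.35%.

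The log2 fold change of C1qb was 0.84 (SE 0.31, adjusted p = 0.164, edgeR) in the WT combination and 0.18 without library 77. It was 0.58 (SE 0.31, adjusted p = 0.339, edgeR) in the FcD combination and 0.51 (SE 0.31, adjusted p = 0.351, edgeR) in the anti-TGF-β combination.

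C1qc, the C chain, followed C1qb closely: the isotype controls held 337, 411, 527, 399 and 408 CPM. The FcD combination held 685, 485, 595, 621 and 604 CPM and the anti-TGF-β combination 584, 601, 571, 522 and 647 CPM. In both groups 4 of 5 mice lay above the highest control. The log2 fold changes of C1qc were 0.52 (SE 0.31) and 0.49 (SE 0.31), and 0.74 (SE 0.31, adjusted p = 0.186, edgeR) in the WT combination, or 0.11 without library 77.

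C1qa, the A chain, was at 400.3, 525, 706, 448 and 469 CPM in the isotype controls. It was at 651, 866, 821, 666 and 887 CPM in the anti-TGF-β combination, where 3 of 5 mice lay above the highest control. In the FcD combination C1qa was at 743, 638, 694, 643 and 703 CPM, a narrow spread within which 1 of 5 mice exceeded that control. The fitted difference was 0.61 (SE 0.28, adjusted p = 0.224, edgeR) in the anti-TGF-β combination and 0.42 (SE 0.28, adjusted p = 0.423, edgeR) in the FcD combination. In the WT combination C1qa was at 494, 492, 699, 403 and 1693 CPM, of which library 77 alone lay outside the controls; the estimate of 0.57 (SE 0.28, adjusted p = 0.245, edgeR) became 0.03 without it.

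The proportions of the C1q chains varied little. The count ratio of C1qb to C1qc was between 0.951 and 1.12 in all 40 libraries (median 1.00), library 77 included. The ratio of C1qa to C1qc ran from 1.01 to 1.44, and its mean was 1.22 ± 0.0906 (SD, n = 5) in the isotype controls and 1.33 ± 0.137 (SD, n = 5) in the anti-TGF-β combination. The values of the groups overlapped, and this difference was not tested.

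C4b encodes C4, the partner of C2 in the C3-cleaving enzyme of the classical pathway. Its level was 159, 143, 133, 120.2 and 103 CPM in the isotype controls and 329, 164, 240, 321 and 217 CPM in the FcD combination. All 5 mice of the FcD combination lay above all 5 controls, the lowest of them by a narrow margin. It was the only member of 9 with that separation in the FcD combination, beside 1.96% of all genes. The log2 fold change was 0.95 (SE 0.30, adjusted p = 0.225, edgeR), that is 254 ± 70.4 CPM against 132 ± 21.6 CPM (SD, n = 5 each).

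In the WT combination C4b was at 194, 135, 244, 172 and 383 CPM, and 4 of 5 mice lay above the highest control. The estimate was 0.78 (SE 0.30, adjusted p = 0.171, edgeR), and 0.50 without library 77. In the anti-TGF-β combination C4b was at 254, 228, 156, 166 and 233 CPM, again with 4 of 5 mice above the controls, and the estimate was 0.65 (SE 0.30, adjusted p = 0.224, edgeR). C4a, the near-copy of C4b, had counts between 0.00631 and 0.047 of those of C4b in every library.

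C2, the protease of the same enzyme, was low everywhere. The isotype controls were at 1.67, 1.79, 2.08, 1.26 and 0.901 CPM. The FcD combination was at 2.74, 1.36, 1.44, 3.17 and 1.33 CPM and the WT combination at 1.82, 0.770, 1.14, 0.731 and 1.74 CPM. Both groups overlapped the controls. C2 was the only member with a negative estimate in a combination, -0.32 (SE 0.34) in the WT combination.

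C3 is the component on which the pathways converge. It was at 117, 147, 66.0, 49.4 and 80.4 CPM in the isotype controls. In the FcD combination it was at 341, 142, 282, 375 and 185 CPM. Of these 4 of 5 mice lay above the highest control, and library 50 fell just short of it. The log2 fold change of 1.53 (SE 0.37, 95% interval 0.79 to 2.26), or 2.88-fold, was the largest of any member in any comparison with the isotype control, with unadjusted p = 0.000244 and adjusted p = 0.225 (edgeR). It ranged from 1.37 to 1.76 as each mouse was left out. DESeq2's test on the same counts called C3 in this comparison (adjusted p = 0.0383), the only member among the 14 genes it called (0.0447%).

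In the WT combination C3 was at 145, 138, 169, 124 and 233 CPM, so 2 of 5 mice lay above the highest control and the rest within the controls' upper range. The estimate was 0.81 (SE 0.37, adjusted p = 0.211, edgeR), and 0.65 without library 77. In the anti-TGF-β combination C3 was at 214, 156, 101, 80.7 and 165 CPM, so 3 of 5 mice lay above the highest control and 2 within the controls' range, with an estimate of 0.64 (SE 0.37, adjusted p = 0.317, edgeR).

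The count ratio of C3 to C4b in the FcD combination had a mean of 1.02 ± 0.156 (SD, n = 5), against 0.689 ± 0.244 (SD, n = 5) in the isotype controls. The ranges overlapped, 0.854 to 1.18 against 0.411 to 1.03, and this difference was not tested.

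Cfb, factor B of the alternative pathway, was at 0.556, 0.448, 0.486, 0.157 and 0.624 CPM in the isotype controls, which is 2 to 9 counts. The WT combination was at 0.802, 0.462, 1.58, 0.658 and 1.87 CPM and the FcD combination at 1.51, 0.528, 1.04, 1.48 and 0.730 CPM. In each of them 4 of 5 mice lay above the highest control. The estimates were 1.21 (SE 0.45, adjusted p = 0.162, edgeR) and 1.20 (SE 0.45, adjusted p = 0.241, edgeR), and in the anti-TGF-β combination 0.34 (SE 0.47, adjusted p = 0.698, edgeR), or 0.14 without library 74. Without library 77 the estimate in the WT combination was 0.92. As most exon bases of Cfb are shared with Gm20547, these few counts rest on a minority of the gene's length if shared reads were discarded.

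C3ar1 encodes the receptor of C3a. In the isotype controls it had the tightest spread of the members, at 102, 117, 105, 109 and 104 CPM. The WT combination was at 122, 112, 211, 143 and 475 CPM, with 4 of 5 mice above every control. The estimate of 0.99 (SE 0.34, adjusted p = 0.159, edgeR) was the smallest adjusted p of any member against the isotype control, and became 0.45 without library 77, which held more than any other library. In the FcD combination C3ar1 was at 203, 89.6, 177, 170 and 190.2 CPM, where library 50 fell below every control and the others lay above, with an estimate of 0.63 (SE 0.34, adjusted p = 0.333, edgeR).

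In the anti-TGF-β combination C3ar1 was at 203, 112, 107, 97.8 and 97.6 CPM. Apart from library 53 these values lay within or below the controls, and the estimate of 0.20 (SE 0.34) became -0.04 without that library. C3ar1 had the smallest estimate of the members in this group, in which the C1q genes had estimates of 0.49 to 0.61.

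Serping1, the C1 inhibitor and the sole regulator among the members, was at 60.5, 52.0, 49.6, 29.3 and 24.0 CPM in the isotype controls. The FcD combination was at 128, 41.6, 81.8, 104 and 61.2 CPM, with 4 of 5 mice above the highest control. The log2 fold change was 0.95 (SE 0.38, adjusted p = 0.2499, edgeR). The WT combination (58.1, 46.9, 73.1, 46.5 and 69.3 CPM) and the anti-TGF-β combination (105, 56.8, 58.0, 33.02 and 57.2 CPM) overlapped the controls widely, with estimates of 0.45 (SE 0.38), or 0.29 without library 78, and 0.53 (SE 0.38), or 0.26 without library 53.

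**Figure D2:**
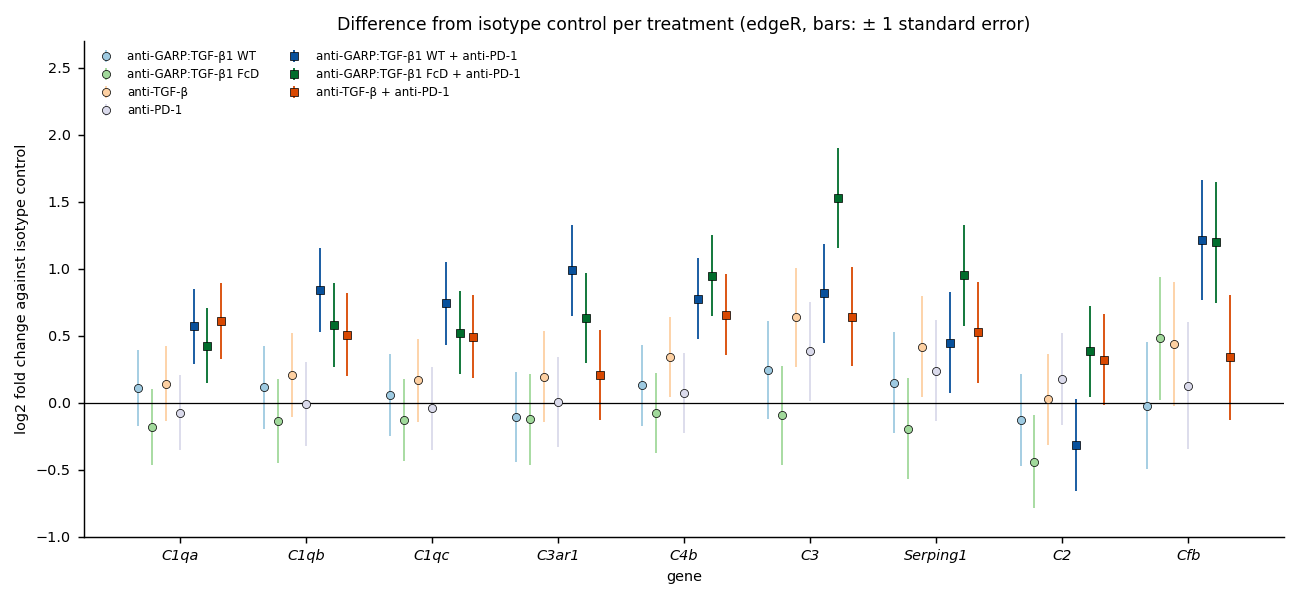
Log2 fold change of each gene against the isotype control for the 7 treatments, fitted by edgeR over all 40 tumors; points are estimates and bars ± 1 standard error. Single mAbs (circles) lie around 0, and the highest point is C3 in the FcD combination, at 1.53.

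Single mAbs were compared with the isotype control in the same way. The log2 fold changes ran from -0.13 to 0.24 with anti-GARP:TGFb WT, from -0.44 to 0.48 with anti-GARP:TGFb FcD, from 0.02 to 0.64 with anti-TGFb and from -0.07 to 0.38 with anti-PD1 FcS. No member had an unadjusted p under 0.05 in these 4 comparisons (edgeR), in which 0.969%, 0.474%, 2.32% and 0.955% of all genes did, and 0 passed after adjustment. The largest of these estimates was C3 with anti-TGFb, 0.64 (SE 0.37), and it rested on library 48. C3 was at 135, 333, 64.0, 82.0 and 102 CPM in that group, and the estimate was 0.05 without that mouse. An estimate near 0 does not show that the levels were alike. The 95% interval of C3 with anti-PD1 FcS, for example, ran from -0.34 to 1.10.

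Adding a second mAb to anti-PD1 FcS was examined against anti-PD1 FcS alone. No member passed the test (edgeR, adjusted p of 0.231 and above), as 0%, 0% and 0.00678% of all genes did for the WT, FcD and anti-TGF-β combinations. At an unadjusted p under 0.05 the higher members were 6 of 9 with anti-GARP:TGFb WT (11.2% of genes), 3 of 9 with anti-GARP:TGFb FcD (6.46%) and 1 of 9 with anti-TGFb (7% of genes). With anti-GARP:TGFb WT the largest estimate was that of Cfb, 1.09 (SE 0.44), and C3ar1 followed at 0.98 (SE 0.34), or 0.45 without library 77, while the 6 became 0 without library 77 (2.15% of genes). C1qb and C3ar1 were at 672 and 205 CPM in library 52, the highest of the anti-PD1 FcS group, and without it they passed in this comparison (adjusted p = 0.0488 and 0.0414, edgeR), as 3.6% of genes did. With anti-GARP:TGFb FcD, C3 gave 1.15 (SE 0.37), Cfb 1.07 (SE 0.45) and C4b 0.88 (SE 0.30). Those 3 members became 8 without library 52 (11.9% of genes), 7 without library 77 (9.89%) and 5 without library 50 (11.5%), and fell to 2 without library 44, 47, 67 or 71 (3.34%, 5.09%, 4.51% and 2.77%). With anti-TGFb, C1qa gave 0.69 (SE 0.28), and this count was 0 without library 47 (7.87% of genes) and 4 without library 52 or 77 (7.34% and 8.58%), and 2 without library 48, 59, 62 or 66 (3.97% to 7.49%).

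The interaction terms asked whether a combination differed from the sum of its single mAbs on the log2 scale. No member passed (edgeR, adjusted p of 0.483 and above), nor did any other gene (0%). At an unadjusted p under 0.05 there was 1 member for anti-GARP:TGFb WT (8.75% of genes), which was C3ar1 at 1.09 (SE 0.48). There were 2 for anti-GARP:TGFb FcD (4.49%), C3 at 1.24 (SE 0.52) and C4b at 0.95 (SE 0.43). There were 0 for anti-TGFb (2.3%), for which the estimates ran from -0.38 to 0.55. These counts moved with single mice. The first was 0 without library 77, where C3ar1 stood at 0.56, and 4 without library 52 (5.46% and 18.5% of genes), and it was also 0 without library 47, 54 or 73 (3.37%, 4.87% and 4.24%) and 2 without library 55 or 69 (16.7% and 9% of genes). The second was 0 without library 71 and 6 without library 52 (2.77% and 11.1% of genes), 5 without library 77 (7.92%), 3 without library 41 or 50 (5.51% and 11.9%) and 1 without library 44, 46, 51, 54, 58 or 75 (2.99% to 4% of genes).

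The Fc formats of anti-GARP:TGFb, each with anti-PD1 FcS, were compared directly. No member and no other gene passed (edgeR, 0% of genes), and 1 of 9 members had an unadjusted p under 0.05, beside 1.3% of genes. That was C2, 0.70 higher with FcD on the log2 scale (SE 0.34, adjusted p = 0.9999, edgeR), at counts of 10 to 47, and its unadjusted p exceeded 0.05 under most other settings. C3 was 0.71 higher with FcD (SE 0.37, 95% interval -0.01 to 1.43). C1qb was 0.26 lower, a difference that became 0.40 higher without library 77, and C1qa, C1qc and C3ar1 likewise went from -0.14, -0.22 and -0.36 to 0.39, 0.41 and 0.18.

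Over all 8 groups together, no member passed (adjusted p from 0.119 for C3 to 0.404 for C2, edgeR F test), and 0.0271% of genes did. At an unadjusted p under 0.05 there were 6 of 9 members (C3, C4b, C3ar1, Cfb, C1qb and C1qa) beside 24.7% of genes. DESeq2's likelihood ratio test called C3, C4b and C3ar1, among 1256 genes (4.01%).

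The estimates of the WT combination were higher in libraries 61 to 80, which include library 77, than in libraries 41 to 60. Within that part the estimates were 1.42 for C3, 1.16 for C4b, 1.66 for Cfb and 1.37 for C3ar1, and these 4 members passed the test there (adjusted p from 0.0232 to 0.0452, edgeR), with 2159 genes in all (14.2%). Within libraries 41 to 60 they were 0.10 for C3, 0.12 for C4b, 0.30 for Cfb and 0.10 for C3ar1. No mouse of the WT combination there, 2 in number, exceeded the controls' highest C3 value. In the FcD combination all 9 members had positive estimates in both parts: C3 was at 0.95 in libraries 41 to 60 and at 2.10 in libraries 61 to 80, where it passed (adjusted p = 0.0346, edgeR) with 1.75% of genes. The difference between the parts was not tested. The sex-linked counts, the sums of the CT26 carcinoma list and the library numbers split the mice alike and cannot be told apart.

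**Figure D3:**
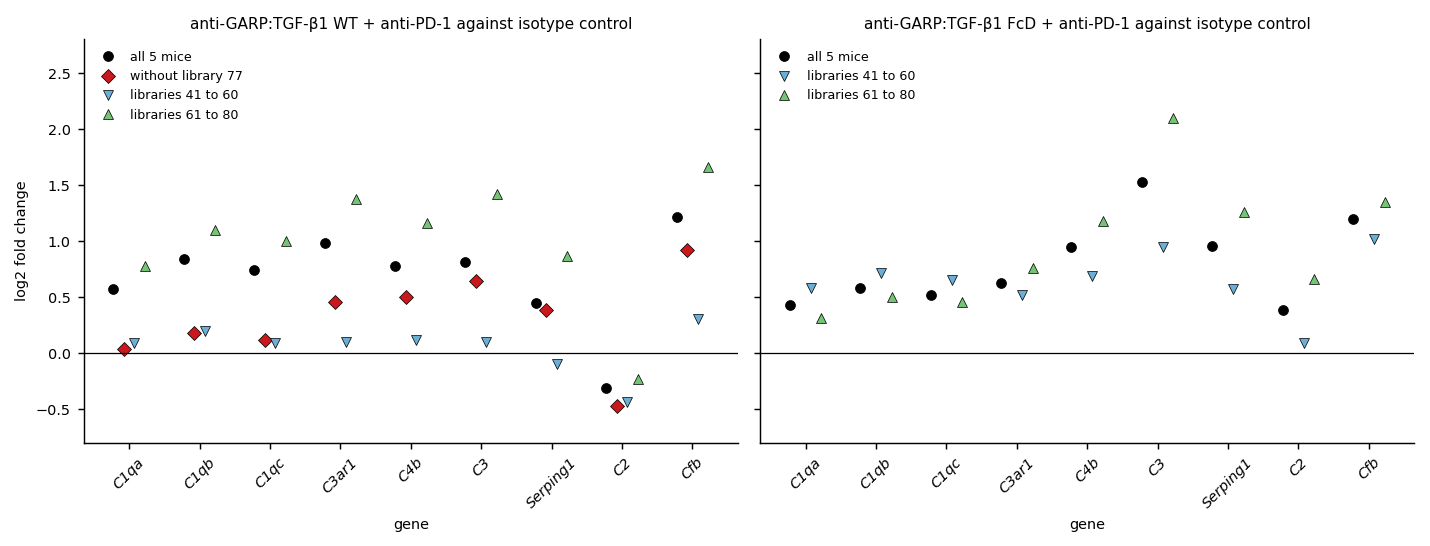
Log2 fold change of each gene against the isotype control for the WT combination (left) and the FcD combination (right), fitted with all mice (black), without library 77 (red, left panel) and within each library part (blue, green). In the left panel the C1q estimates fall to 0.03 to 0.18 without library 77, whereas in the right panel every estimate stays above 0.

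Over the 40 tumors most members correlated with one another. Pearson's r of log2 CPM had an adjusted permutation p under 0.05 for 34 of the 36 pairs, with r from 0.19 to 1.00 and a median of 0.63. The share of all gene pairs so correlated is not given, so this count is not read as particular to the members. The permutation ignored group and library part. With deviations from the group means r was 0.996 for C1qb and C1qc, 0.835 for C3 and Serping1 and 0.376 for C3 and C1qb. The tightest pair was C1qb and C1qc, with r = 0.996 and Spearman's rho = 0.984 (permutation p = 1e-05 for each, the smallest that 100000 resamples give; adjusted p = 2e-05 and 2.57e-05), and r was 0.993 without the 2 farthest tumors. C3 and Serping1 formed another close pair, with r = 0.870 and rho = 0.839 (permutation p = 1e-05 for each, adjusted p = 2e-05 and 2.57e-05), and r was 0.840 without the 2 farthest. C3 with C1qb stood lower, at r = 0.541 and rho = 0.538 (permutation p = 0.00023 and 0.00044, adjusted p = 0.00036 and 0.000689), or 0.628 without the 2 farthest.

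C4b lay between these sets. Its r was 0.845 with C3 (rho 0.827) and 0.817 with C1qb (rho 0.776), each with an adjusted permutation p of 2e-05 for r, and r was 0.812 and 0.844 without the 2 farthest tumors. The pairs that did not pass were those of C2 with C3ar1 (r = 0.186, rho = 0.110, permutation p = 0.249 and 0.5, adjusted p = 0.249 and 0.5) and with Cfb (r = 0.246, rho = 0.202, permutation p = 0.127 and 0.212, adjusted p = 0.131 and 0.218), and r was 0.073 and 0.287 without the 2 farthest. Within libraries 41 to 60 and 61 to 80, r was 0.994 and 0.998 for C1qb and C1qc, 0.880 and 0.840 for C3 and Serping1, and 0.577 and 0.644 for C1qb and C3.

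**Figure D4:**
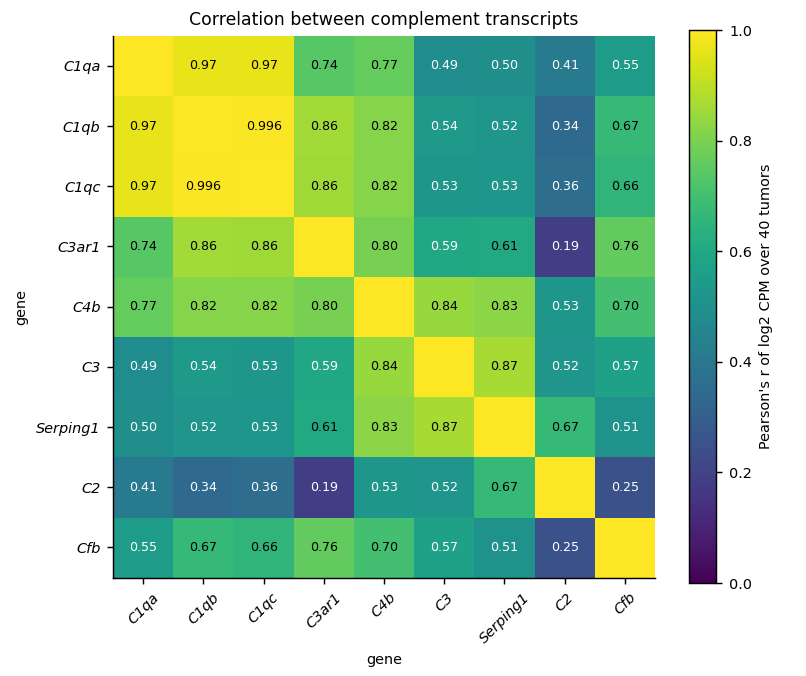
Pearson's r of log2 CPM over the 40 tumors for each pair of the 9 genes (colour and printed value, scale 0 to 1). The C1q genes form a block above 0.96, C3 and Serping1 pair at 0.87, and C2 has the lowest values, down to 0.19 with C3ar1.

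Markers of other cell types moved with the members. In the isotype controls the 12 macrophage markers summed to 1153 to 1638 CPM, in the WT combination to 1205 to 8120, in the FcD combination to 1557 to 3244 and in the anti-TGF-β combination to 1461 to 2476 CPM. In the WT combination library 77 held the 8120 CPM, the others 1578, 1208, 2240 and 1205 CPM, so that 2 of 5 mice lay above the controls. Of the 12, 9, 6 and 1 had an unadjusted p under 0.05 and were higher in the respective combinations (edgeR), beside 13.2%, 10.7% and 8.49% of all genes, and no marker was at 0. Without library 77 the 9 became 0 (2.81% of genes). The 6 became 2 without library 44, 71 or 78 (6.61%, 5.3% and 7.8%) and 3 without library 74 (7.72%). C1qb followed this sum over the 40 tumors, with r = 0.890 and rho = 0.877 (permutation p = 1e-05 for each, adjusted p = 3.72e-05 and 4.7e-05 over 108 pairs of a member and a list), and r was 0.807 without libraries 77 and 48. Within libraries 41 to 60 and 61 to 80 r was 0.875 and 0.930. C1qb also correlated with other lists. The r was 0.864 with monocytes, 0.734 with T cells, 0.665 with endothelium, 0.648 with neutrophils and 0.646 with interferon response genes, and rho was 0.797, 0.640, 0.479, 0.614 and 0.736 (permutation, adjusted p of 0.00455 and below). Without the 2 farthest libraries of each list these r were 0.794, 0.641, 0.386, 0.531 and 0.596. In the first part they were 0.847, 0.737, 0.470, 0.582 and 0.814, and in the second 0.914, 0.763, 0.830, 0.809 and 0.505. C1qb against the 9 fibroblast markers gave r = 0.084 and rho = 0.121 (permutation p = 0.598 and 0.456, adjusted p = 0.652 and 0.566), 0.113 without the 2 farthest, and 0.189 and -0.096 within the parts.

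C3 followed the 4 adipocyte markers (Adipoq, Plin1, Lep and Cidec), with r = 0.797 and rho = 0.726 (permutation p = 1e-05 for each, adjusted p = 3.72e-05 and 4.7e-05). The r was 0.730 without libraries 71 and 48, and 0.788 and 0.771 within libraries 41 to 60 and 61 to 80. These markers summed to 0.693 to 24.2 CPM in the isotype controls and to 10.6 to 188 CPM in the FcD combination. In that group 3 of 5 mice lay above the highest control. There 4 of 4 had an unadjusted p under 0.05 (edgeR), beside 10.7% of all genes higher at that p. Without library 71 the count was 1 of 4, beside 5.3% of genes. In the WT and anti-TGF-β combinations the markers summed to 5.11 to 33.9 and 1.24 to 44.9 CPM. In these groups 0 of 4 had such a p, beside 13.2% and 8.49% of genes higher at it. Lep had 0 counts in at least 1 library. Serping1 went the same way, with r = 0.777 and rho = 0.692 (permutation p = 1e-05 for each, adjusted p = 3.72e-05 and 4.7e-05), 0.717 without those libraries, and 0.696 and 0.792 within the parts. Both genes also correlated with the summed neutrophil markers. For C3 r was 0.768 and rho 0.737, with 0.724 without the 2 farthest and 0.738 and 0.779 within the parts, and for Serping1 r was 0.790 and rho 0.758, with 0.766 without the 2 farthest and 0.841 and 0.723 within the parts (permutation p = 1e-05 for each, adjusted p = 3.72e-05 and 4.7e-05). The neutrophil markers summed to 21.4 to 61.6 CPM in the isotype controls and to 35.7 to 166 CPM in the FcD combination. With the interferon response genes C3 gave r = 0.527 and rho = 0.692 (permutation p = 0.00048 and 1e-05, adjusted p = 0.00102 and 4.7e-05), 0.683 without the 2 farthest, and 0.381 and 0.684 within the parts, while r of the deviations from the group means was 0.335. C3 also correlated with macrophages, monocytes, endothelium and T cells, at r of 0.635, 0.627, 0.580 and 0.484 and rho of 0.600, 0.651, 0.545 and 0.448 (permutation, adjusted p of 0.00936 and below), and r was 0.659, 0.559, 0.523 and 0.433 without the 2 farthest. These r were 0.765, 0.647, 0.723 and 0.526 in the first part and 0.595, 0.634, 0.609 and 0.460 in the second. Library 71, with the highest C3 of all (375 CPM), also had the highest adipocyte sum, 188 CPM.

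C4b correlated with macrophages, monocytes, neutrophils, T cells and interferon response genes, at r of 0.772, 0.810, 0.773, 0.728 and 0.704 and rho of 0.754, 0.771, 0.705, 0.649 and 0.834 (permutation, adjusted p of 0.000154 and below). Without the 2 farthest r was 0.766, 0.755, 0.7099, 0.666 and 0.775. It was 0.889, 0.789, 0.769, 0.739 and 0.649 in the first part and 0.697, 0.834, 0.796, 0.715 and 0.773 in the second. C3ar1 correlated with macrophages, T cells, monocytes and endothelium, at r of 0.844, 0.794, 0.781 and 0.709 and rho of 0.627, 0.737, 0.638 and 0.444 (permutation, adjusted p of 0.00937 and below). Without the 2 farthest r was 0.728, 0.721, 0.651 and 0.480, and it was 0.858, 0.816, 0.794 and 0.554 in the first part and 0.845, 0.789, 0.783 and 0.843 in the second.

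**Figure D5:**
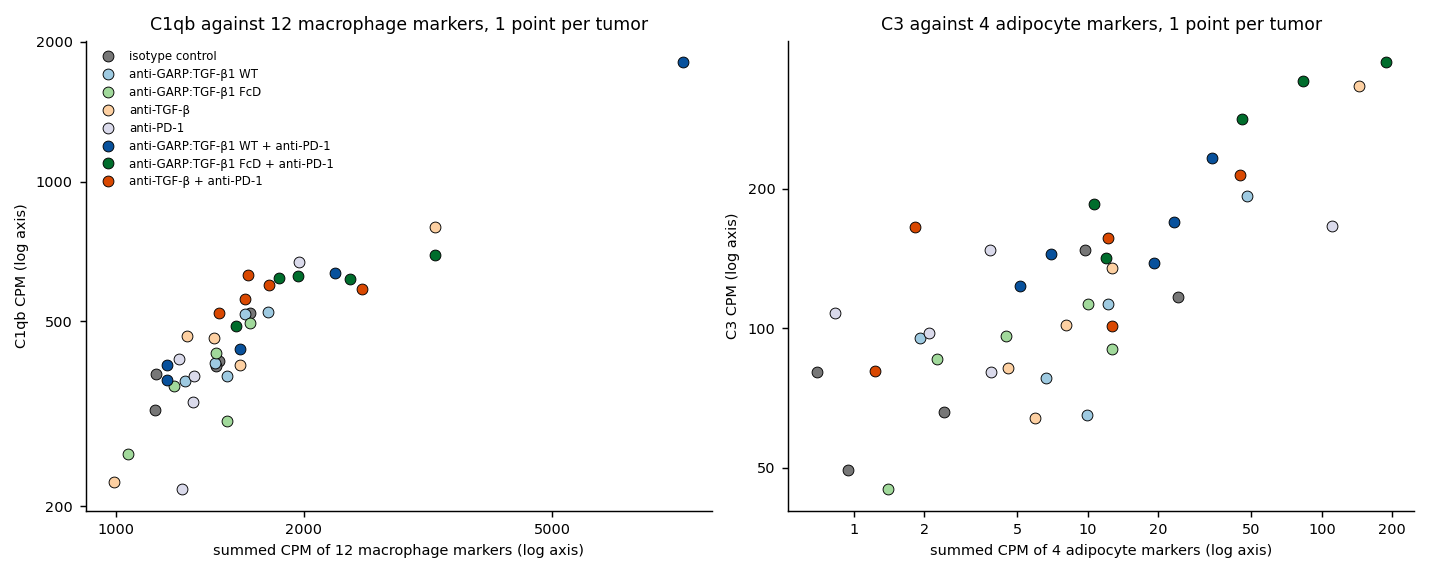
Left, C1qb against the summed CPM of 12 macrophage markers; right, C3 against the summed CPM of 4 adipocyte markers; each point is 1 of 40 tumors, coloured by group, on log axes. C1qb climbs with the macrophage sum (r = 0.890), library 77 lying at 8120 and 1807 CPM, and C3 climbs with the adipocyte sum (r = 0.797).

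The other lists gave these values for the WT, FcD and anti-TGF-β combinations, as markers higher at an unadjusted p under 0.05 (edgeR). Of all genes, 13.2%, 10.7% and 8.49% were higher at that p. Monocytes had 3, 2 and 3 of 4, with sums of 224 to 293 CPM in the isotype controls and 314 to 363 CPM in the anti-TGF-β combination, where all 5 mice lay above them. Neutrophils had 1, 3 and 3 of 4 tested, and Ly6g had a median count of 0. Fibroblasts had 2, 4 and 0 of 9, endothelium 3, 1 and 0 of 5, T cells 1, 1 and 1 of 6, B cells 0, 0 and 3 of 3, and the CT26 carcinoma list 1, 5 and 0 of 5, skeletal muscle 0, 0 and 0 of 3 tested. The T cell counts lie near the shares of all genes. Single mice moved the counts of several lists. Without library 77 the WT combination had 0 of the neutrophil, endothelium, T cell and carcinoma lists and 1 of the fibroblast markers (2.81% of genes). Without library 71 the FcD combination had 0 of the carcinoma and endothelium lists and 1 of the fibroblast markers (5.3% of genes). Without library 44 it had 1 of the neutrophil markers (6.61%). In the anti-TGF-β combination the 3 B cell markers became 0 without library 68 (5.34% of genes) and the 3 neutrophil markers 1 without library 62 (4.92%). The carcinoma sum of the FcD combination was highest in library 71, at 500.1 CPM, and its median of 12.7 CPM lay below the isotype median of 20.6 CPM. The B cell sum of the anti-TGF-β combination was 57.0 CPM in library 68 and 0.909 to 1.98 CPM in the rest, where the controls held 0.247 to 2.32 CPM. Hepatocyte markers were close to 0, summing to at most 1.95 CPM in any library, with Ttr at 0 counts throughout. The 10 interferon response genes had 4, 6 and 7, ranging from 1 to 6, 2 to 8 and 3 to 9 as each mouse was left out. Over those fits the shares of all genes ran from 2.81% to 17.4%, 5.3% to 14.9% and 4.92% to 13.1%. The sum of the interferon response genes lay above every control in 5 of 5 mice of each combination. The part of these cell types in the members' values was not tested.

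The rest of the pathway was followed through 40 further complement genes, of which 26 were tested. None passed in a comparison with the isotype control (edgeR). At an unadjusted p under 0.05, 9, 11 and 8 of 26 were higher in the WT, FcD and anti-TGF-β combinations, beside 13.2%, 10.7% and 8.49% of all genes, and 0 were lower. The median log2 fold changes were 0.54, 0.53 and 0.44. Without library 77 the 9 became 3 (2.81% of genes) and without library 63 they became 5 (10.8%), and without library 44 the 11 became 7 (6.61%). The 8 became 2 without library 68 (5.34%), 4 without library 57, 63 or 78 (6.59%, 11.1% and 6.06%) and 5 without library 74 (6.41%). Fcna, which encodes ficolin A, a starter of the lectin pathway, was detected in every tumor at 112 to 429 counts, with estimates of -0.17 (SE 0.30), 0.17 (SE 0.30) and 0.14 (SE 0.30) in the WT, FcD and anti-TGF-β combinations. Mbl1 and Mbl2, which encode mannose-binding lectins of the same pathway, and C8b, C4bp and Cd55b had no count in any tumor. A library with 0 counts, taken alone, allows an expected count of up to about 3. The mean over all 40 libraries is bounded lower than that. In CPM, which is not scaled by gene length, the tested genes ran from C7 of the terminal pathway, at a mean of 0.282, to C1s1, a protease of the C1 complex, at 302.

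Of the proteases that work with C1q, C1rb was at 9.45 ± 2.66 CPM in the anti-TGF-β combination against 5.08 ± 0.958 CPM in the isotype controls (SD, n = 5 each), a log2 fold change of 0.89 (SE 0.25, adjusted p = 0.118, edgeR), with 4 of 5 mice above the controls. Among alternative pathway genes, Cfd, which encodes factor D and is strongly expressed in fat, was at 148 ± 173 CPM in the FcD combination against 13.98 ± 14.6 CPM, with an estimate of 3.40 (SE 1.12, adjusted p = 0.225, edgeR), or 2.44 without library 71. Cfp, which encodes properdin, had estimates of 0.79 (SE 0.28) in the WT combination, or 0.22 without library 77, and 0.61 (SE 0.28) in the FcD combination. C6, of the terminal pathway, was at 13.8 ± 7.79 CPM in the FcD combination against 4.26 ± 1.69 CPM, with an estimate of 1.68 (SE 0.51, adjusted p = 0.225, edgeR). It lay above the controls in 5 of 5 mice, the lowest at 5.958 CPM against a highest control of 5.934 CPM. Of all genes 1.96% had that separation.

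Of the further regulators, 2, 3 and 1 of 6 tested were higher at an unadjusted p under 0.05 in the WT, FcD and anti-TGF-β combinations (edgeR). Of the receptors it was 3, 2 and 1 of 7 tested. Of all genes it was 13.2%, 10.7% and 8.49%, and the anti-TGF-β counts lie near that share. Without library 77 the 9 of 26 further genes of the WT combination became 3 (2.81% of genes). Cr1l and Cd46, regulators on the cell surface, had estimates of -0.01 (SE 0.08) and 0.31 (SE 0.29) in the FcD combination, and C5ar2, a receptor of C5a, had 0.06 (SE 0.29). These 3 genes and Fcna were chosen after their values were seen, and the genes that follow were named for their small unadjusted p. Cd59a, which blocks the membrane attack complex, had an estimate of 1.51 (SE 0.44, adjusted p = 0.225, edgeR) in the FcD combination. There 5 of 5 mice lay above the controls at 31 to 100 counts, a separation that 1.96% of all genes had. Cd55, which speeds decay of the C3-cleaving enzymes, had 1.50 (SE 0.56) in the same group, or 0.90 without library 44. Itgb2, a chain of complement receptors 3 and 4, had 1.12 (SE 0.33, adjusted p = 0.159, edgeR) in the WT combination, or 0.62 without library 77, and 0.88 (SE 0.33) in the FcD combination.

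The genes whose pattern over the 40 tumors was most like that of a member were partly shared: Cd300d and Ly86 stood first for both C1qb and C1qc, and Dram1 was among the 3 of both C3 and C4b. Likeness was measured by Pearson's r of log2 CPM, as a description over tumors that share groups and library parts. Those of C1qb were Cd300d (0.983), Ly86 (0.975) and Tyrobp (0.974), those of C1qc Cd300d (0.979), Ly86 (0.975) and Hcls1 (0.974), and those of C1qa Lst1 (0.967), Arrb2 (0.966) and Tmem106a (0.958). Among those of C3ar1 were Lcp1 (0.983) and Nckap1l (0.977). C4b was most like Pla2g16 (0.947), Nod1 (0.934) and Dram1 (0.917), and C3 most like Dram1 (0.889), Mgst1 (0.869) and Cped1 (0.863). Serping1 was most like Ccl11 (0.909), Fzd1 (0.903) and Hsd11b1 (0.903). The low-count members had weaker partners: Elmo1 (0.816), Ticam2 (0.816) and Prex1 (0.813) for Cfb, and Azin2 (0.704), Id3 (0.699) and Mfap2 (0.680) for C2.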

How the data were processed

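Tumor fragments of 40 mice were profiled by stranded, poly(A)-selected RNA sequencing. The authors deposited raw counts per gene, and the submitters' processing notes name STAR 2.5.3a, SAMtools 1.6 and HTSeq 0.9.1 with GRCm38; the counting mode and annotation release are not given in the sources used here. The deposited counts, unchanged, were tested with edgeR 4.0.16 (R 4.3.3; TMM, filterByExpr, robust quasi-likelihood fit of 8 group means over all 40 mice, Benjamini-Hochberg adjustment over 14760 genes, threshold 0.05). CPM used TMM library sizes, and log2 CPM a prior count of 2. Groups came from the labels, which give no replicate number. The mice are separate animals. Correlations used 100000 permutations. Positions and exon lengths are from a GENCODE annotation of GRCm38. Alternatives were DESeq2 1.42.0 (test and size factors), no filter, compared groups alone, library part as covariate, each part alone, each mouse left out, exact permutation over the 252 divisions of 10 mice, and correlations of deviations from group means. On simulated data (the FcD combination against the isotype control, 14760 genes) the fit called 60% of genes changed 2-fold and 88% of those changed 4-fold. Members, lists and tests were chosen with earlier results of these data known. Genes named are the members, up to 8 further complement genes by smallest unadjusted p in a combination with the lowest and highest in level, the 3 genes most like each member, and fixed marker lists; a few items under these rules, and a further motif searched, are not reported here.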

Additional observations from a re-analysis of the deposited data

Results flagged for a closer look

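Dixon's criterion was applied to 72 combinations of gene and group (9 members, 8 groups of 5 mice). In 9 of them, 1 mouse lay farther from its nearest neighbour than it allows (a gap above 0.71 of the group's range). Chance gives about 1 in 20 for independent groups of normally distributed values. Here CPM were not transformed and members varied together (r = 0.996 for C1qb and C1qc). The 9 of 72 thus cannot be set against that rate. Of the 9, 4 were library 77 of the WT combination, with C1qa at 1693, C1qb at 1807, C1qc at 1675 and C3ar1 at 475.4 CPM, each the highest of all 40 tumors. Library 48 of the anti-TGFb group had C3 at 332.8 and Serping1 at 136.6 CPM. Library 42 of the anti-GARP:TGFb WT group had Serping1 at 91.23 CPM, beside summed fibroblast markers of 3943 CPM, where the isotype controls held 2024 to 2528 CPM. Library 53 of the anti-TGF-β combination had C3ar1 at 202.5 CPM, and library 50 of the FcD combination had the lowest C3ar1 of its group, 89.59 CPM. The source of these values was not tested.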

How the results depend on the processing

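The count of members with adjusted p under 0.05, 0 in every comparison, stayed at 0 in 108 of 114 other settings and in 636 fits without a mouse, against 4 that changed it. In the FcD combination against the isotype control it was 1 with DESeq2's test (0.0447% of genes), 2 with the compared groups alone in the fit (C1qb and C4b, 1.3% of genes) and 1 in libraries 61 to 80 (1.75%). In the WT combination it was 4 in libraries 61 to 80 (14.2% of genes). Over all 8 groups it was 3 with DESeq2's test (4.01% of genes) and 3 in libraries 61 to 80 (18.7%), and 0 to 2 without a mouse (2 without library 48, 50 or 53, beside 2.61%, 7.74% and 15.3% of genes). Against anti-PD1 FcS, the WT combination had 0 to 2, the 2 without library 52 (3.6% of genes). No paired analysis was possible because the labels give no replicate numbers. Depth limits C2 and Cfb, at 2 to 47 counts; a p that misses the threshold does not show equal levels. The median over all genes lay between -0.03 and 0.02 under both scalings.

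The sign of a member's log2 fold change was less stable than these counts: over 9 members and 15 comparisons it reversed in 57 values under another setting and in 110 values without a mouse. The cause was not tested. In libraries 61 to 80 the reversed values were, for anti-GARP:TGFb WT, C1qa -0.13, C1qb -0.16, C1qc -0.20, C2 0.0318 and C4b -0.12, for anti-GARP:TGFb FcD, C3 0.21 and C4b 0.08734, for anti-PD1 FcS, C2 -0.28, Cfb -0.09324 and C3ar1 -0.06296, for the anti-TGF-β combination, C3ar1 -0.07363, for the WT combination against anti-PD1 FcS, C2 0.0461, for the anti-TGF-β combination against anti-PD1 FcS, C3 -0.08609 and C3ar1 -0.01067, for the WT interaction, C2 0.0143, for the anti-TGF-β interaction, C4b -0.00292 and C3ar1 -0.02766. In libraries 41 to 60 they were, for anti-GARP:TGFb WT, C3 -0.04426, Cfb 0.004806 and C3ar1 0.01167, for anti-GARP:TGFb FcD, C1qa 0.08811, C1qb 0.04981, C1qc 0.08939 and Cfb -0.68, for anti-TGFb, C2 -0.24, for anti-PD1 FcS, C1qa 0.09087, C1qb 0.16, C1qc 0.12, C3 -0.16, C4b -0.18 and Serping1 -0.001748, for the WT combination, Serping1 -0.10, for the WT combination against anti-PD1 FcS, C1qa -0.0007649, C1qc -0.03088 and Serping1 -0.10, for the FcD combination against anti-PD1 FcS, C2 -0.21, for the anti-TGF-β combination against anti-PD1 FcS, C2 -0.23, for the WT interaction, C1qa -0.34, C1qb -0.35, C1qc -0.35 and Serping1 -0.11, for the anti-TGF-β interaction, C3 0.22, Cfb 0.19 and Serping1 0.22, for FcD against WT, C1qa 0.49, C1qb 0.52, C1qc 0.56, Cfb 0.71 and C3ar1 0.42. With library part as a covariate they were, for anti-GARP:TGFb WT, Cfb 0.02916, for anti-PD1 FcS, C1qb 0.0161, for the anti-TGF-β interaction, Serping1 0.02846, for FcD against WT, Cfb 0.05203. As a difference of mean log2 CPM (permutation test) they were, for anti-GARP:TGFb WT, Cfb 0.04089, for anti-PD1 FcS, C3ar1 -0.14. With no filter on low counts they were, for anti-PD1 FcS, C1qb 0.0007402, for the anti-TGF-β interaction, C3ar1 -0.00899. Without a mouse, 40 estimates crossed 0. For anti-GARP:TGFb WT the range was C1qc from -0.02413 to 0.15, C2 from -0.29 to 0.001258, C3 from -0.06874 to 0.47, C4b from -0.004368 to 0.22, Cfb from -0.23 to 0.11 and Serping1 from -0.22 to 0.30. For anti-GARP:TGFb FcD the range was C3 from -0.25 to 0.14, C4b from -0.20 to 0.07831 and Serping1 from -0.38 to 0.01031. For anti-TGFb the range was C1qa from -0.13 to 0.29, C1qb from -0.06948 to 0.38, C1qc from -0.12 to 0.33, C2 from -0.12 to 0.15, C4b from -0.06426 to 0.54, Serping1 from -0.19 to 0.57 and C3ar1 from -0.17 to 0.33. For anti-PD1 FcS the range was C1qa from -0.27 to 0.06714, C1qb from -0.27 to 0.14, C1qc from -0.30 to 0.12, C4b from -0.03791 to 0.17, Cfb from -0.19 to 0.31 and C3ar1 from -0.37 to 0.17. For the anti-TGF-β combination the range was C3ar1 from -0.03986 to 0.28. For the FcD combination against anti-PD1 FcS the range was C2 from -0.02487 to 0.35. For the anti-TGF-β combination against anti-PD1 FcS the range was C3ar1 from -0.04649 to 0.57. For the WT interaction the range was C3 from -0.04417 to 0.50 and Serping1 from -0.09471 to 0.43. For the anti-TGF-β interaction the range was C2 from -0.01244 to 0.28, C3 from -0.60 to 0.21, Cfb from -0.46 to 0.09414, Serping1 from -0.39 to 0.48 and C3ar1 from -0.24 to 0.37. For FcD against WT the range was C1qa from -0.31 to 0.39, C1qb from -0.43 to 0.40, C1qc from -0.39 to 0.41, Cfb from -0.22 to 0.28 and C3ar1 from -0.52 to 0.18. For the difference between library parts the range was C1qa from -0.02376 to 0.13, C4b from -0.13 to 0.01519 and C3ar1 from -0.07623 to 0.08963. The further complement genes named for a small unadjusted p (C1rb, Cfd, Cfp, C6, Cd59a, Cd55 and Itgb2) kept their direction under every alternative. The alternatives were chosen for them after seeing the data, and none was run for Fcna, Cr1l, Cd46 or C5ar2. C1rb passed with DESeq2's test and without library 53 or 63, Cfd, Cfp and Itgb2 passed in libraries 61 to 80 (Cfp and Itgb2 in the WT combination), and Itgb2 in the FcD combination passed with the compared groups alone.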
